A study of Mus musculus with 14 samples.

Results

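The genes described are the receptor chains for 4 cytokines that act on natural killer T (NKT) cells, namely interleukins 25, 6, 12 and 18 (IL-25, IL-6, IL-12 and IL-18). They were chosen by symbol: Il17rb, Il17ra, Il6ra, Il6st, Il12rb1, Il12rb2, Il18r1 and Il18rap. Of these 8 genes, 7 were among the 10303 gene symbols of the deposited count table, and all 7 passed the filter on low counts that left 7965 genes to test. Il12rb2 was not listed and is not analysed here.

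NKT cells, which carry an invariant T cell receptor for lipids on CD1d, were sorted from thymi of young male wild-type mice. Each mouse received an injection into the peritoneum. It held either dexamethasone, a glucocorticoid drug, in a dose of 200 ug for each 10 g of body weight, or a vehicle with 8% ethanol. The groups were 5 vehicle libraries taken at 3 d, 5 dexamethasone libraries taken at 18 h and 4 dexamethasone libraries taken at 3 d. The study has no 18 h vehicle group, so the vehicle libraries serve both times, and the labels do not say whether a replicate is 1 mouse or a pool. RNA was counted at the 3′ end of polyadenylated transcripts (bulk MARS-seq).

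Each of these receptors pairs a chain that binds the cytokine with a chain that is shared or that signals. IL-25, a product of tuft cells, binds IL-17RB (Il17rb), which signals together with IL-17RA (Il17ra), the chain shared within the IL-17 family. IL-6 binds its alpha chain (Il6ra), and the complex engages gp130 (Il6st), which activates JAK kinases and STAT3. IL-12 binds IL-12Rβ1 (Il12rb1), shared with the IL-23 receptor, and IL-12Rβ2 (Il12rb2), which leads to STAT4. IL-18 binds IL-18Rα (Il18r1), which recruits the accessory chain IL-18Rβ (Il18rap), and the pair signals through MyD88 towards NF-kB. In mouse thymus, IL-17RB is known from the NKT subsets that make type 2 cytokines or IL-17 (NKT2 and NKT17), whereas IL-12 and IL-18 are known to stimulate interferon gamma production by the type 1 subset (NKT1).

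The 2 IL-18 receptor genes are neighbours on the plus strand of mouse chromosome 1 (GRCm38, which is mm10), with Il18r1 at 40465552 to 40500854 and Il18rap at 40515362 to 40551705, 14.51 kb apart. Il17rb lies on the minus strand of chromosome 14 (29996135 to 30008896), Il6ra on the minus strand of chromosome 3 (89864059 to 89913196) and Il6st on the plus strand of chromosome 13 (112464070 to 112510086). Il17ra (chromosome 6, 120463247 to 120487559) and Il12rb1 (chromosome 8, 70808449 to 70821424) lie on the plus strand. Upstream sequence is shown for both IL-18 receptor genes, whose transcripts took different courses although the genes adjoin, and for the cytokine-binding chains Il17rb and Il6ra, which were both lower at 3 d than at 18 h. Each is the 250 bases before the first listed start of the gene in RefSeq (GRCm38.p6), read 5′ to 3′ on the gene's strand.
Il18r1 (chr1:40465302-40465551, plus strand): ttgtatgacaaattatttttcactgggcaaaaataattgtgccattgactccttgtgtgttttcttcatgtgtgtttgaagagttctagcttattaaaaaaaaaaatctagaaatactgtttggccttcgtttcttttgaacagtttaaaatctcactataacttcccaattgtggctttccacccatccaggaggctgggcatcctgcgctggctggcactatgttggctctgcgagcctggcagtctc
Il18rap (chr1:40515112-40515361, plus strand): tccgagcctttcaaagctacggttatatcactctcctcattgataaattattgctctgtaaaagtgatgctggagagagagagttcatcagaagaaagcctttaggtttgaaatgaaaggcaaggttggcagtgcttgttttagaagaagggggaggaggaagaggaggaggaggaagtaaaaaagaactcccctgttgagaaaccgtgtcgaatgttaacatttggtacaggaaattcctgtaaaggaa
Il17rb (chr14:30008897-30009146, minus strand): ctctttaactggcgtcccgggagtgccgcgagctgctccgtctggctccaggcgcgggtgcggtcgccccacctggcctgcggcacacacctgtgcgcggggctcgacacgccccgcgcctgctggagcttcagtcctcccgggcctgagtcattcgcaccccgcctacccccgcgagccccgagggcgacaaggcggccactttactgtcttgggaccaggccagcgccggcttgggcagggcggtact
Il6ra (chr3:89913197-89913446, minus strand): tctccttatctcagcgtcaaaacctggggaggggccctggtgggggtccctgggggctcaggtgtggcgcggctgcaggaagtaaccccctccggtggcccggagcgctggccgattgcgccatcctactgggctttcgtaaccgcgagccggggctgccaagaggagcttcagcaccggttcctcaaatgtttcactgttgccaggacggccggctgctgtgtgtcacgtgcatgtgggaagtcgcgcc
These windows were searched on both strands for the 15-base palindromic glucocorticoid receptor element, for its 6-base arm AGAACA, which lies within it, and for the STAT element TTCNNNGAA, and a match would stand in capitals. None of the 4 windows held a match, and all letters are therefore in lower case. Among all 32841 RefSeq windows of this length, the arm occurred in 16.1%, the STAT element in 7.02% and the full glucocorticoid element in 0.00913% (3 windows). Of the 8 genes, 6 had windows in the table (all but Il17ra and Il12rb1). Elsewhere among them, 1 STAT element stood 123 to 115 bases before the start of Il12rb2, and 2 stood before the third listed start of Il18r1, at 219 to 211 and 152 to 144 bases. A match is a run of letters and not a measured binding site.

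Total counts ran from 977037 to 2203273 per library, so that 1 count was worth 0.471 to 1.11 CPM, which are counts scaled to a library total of 1000000. Levels below are CPM after TMM scaling, given in the order of replicates, and fold changes are log2 values with their standard error (SE) from 1 edgeR quasi-likelihood fit over all 14 libraries, with Benjamini-Hochberg adjusted p-values over the 7965 genes tested. A gene is said to rise or fall where its adjusted p was below 0.05. The T cell marker Cd3e was present in all libraries, as was Zbtb16, the NKT lineage factor, but their levels differed between groups. Cd3e stood at 395 to 769 CPM in vehicle, 257 to 342 CPM at 18 h and 218 to 349 CPM at 3 d. Zbtb16 stood at 41.7 to 81.7, 18.8 to 77.3 and 13.95 to 26.6 CPM in the same order. Both belong to a list of 12 NKT markers, of which 10 were listed and tested. Of these 10, 2 were called higher and 3 lower at 18 h against vehicle, and 5 were not called. At 3 d against vehicle, 4 were called lower and 6 were not called. Replicates 2 and 3 of the 18 h group stood apart by CD8 transcripts, with Cd8b1 at 1008 and 648 CPM against 9.43 to 71.2 CPM elsewhere. Of 9 markers of conventional mature T cells, 8 were listed and none of these was at 0 in any library. Their summed level was 3309 and 2567 CPM in those 2 libraries, 688 to 1124 CPM in the other 18 h libraries, 612 to 811 CPM in vehicle and 468 to 611 CPM at 3 d. Of 9 markers of CD4+CD8+ thymocytes, 8 were listed and summed to 1296 and 854 CPM in those libraries and to at most 171.7 CPM elsewhere, and both lists hold Cd8a and Cd8b1. Rag1, a defining thymocyte gene, was at 0.856 and 0 CPM there, but it was low throughout, with at most 6.94 CPM in any library. Of the 5 CD4+CD8+ thymocyte markers tested, 2 were called higher and 1 lower at 18 h against vehicle. The part that such cells play in the receptor results was not tested. They are called the CD8-rich libraries below.

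The called receptor genes differed in direction and in time. At 18 h, Il18rap fell and Il17ra rose against vehicle. At 3 d against vehicle, Il6ra fell and no receptor gene rose. Between the times, Il18rap was higher at 3 d, and Il6ra and Il17rb were lower. Of the 7 tested, 2 were called at 18 h, where 34.3% of all genes tested were called, 1 at 3 d (25.9% of all genes), and 3 between the times (11.7% of all genes, 4.78% higher and 6.91% lower at 3 d). The median log2 fold change of the 7 genes was 0.41, 0.20 and -0.31 in these comparisons, beside 0.01, 0.03 and -0.01 over all genes. Both comparisons with vehicle share the vehicle libraries, and no vehicle library was taken at 18 h, so time after injection and dexamethasone cannot be told apart in the 18 h values. Group ranges were separate for 1 receptor gene at 18 h against vehicle, 3 at 3 d against vehicle and 2 between the times, which was the case for 19.8%, 21.6% and 11.1% of all genes tested.

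**Figure D1:**
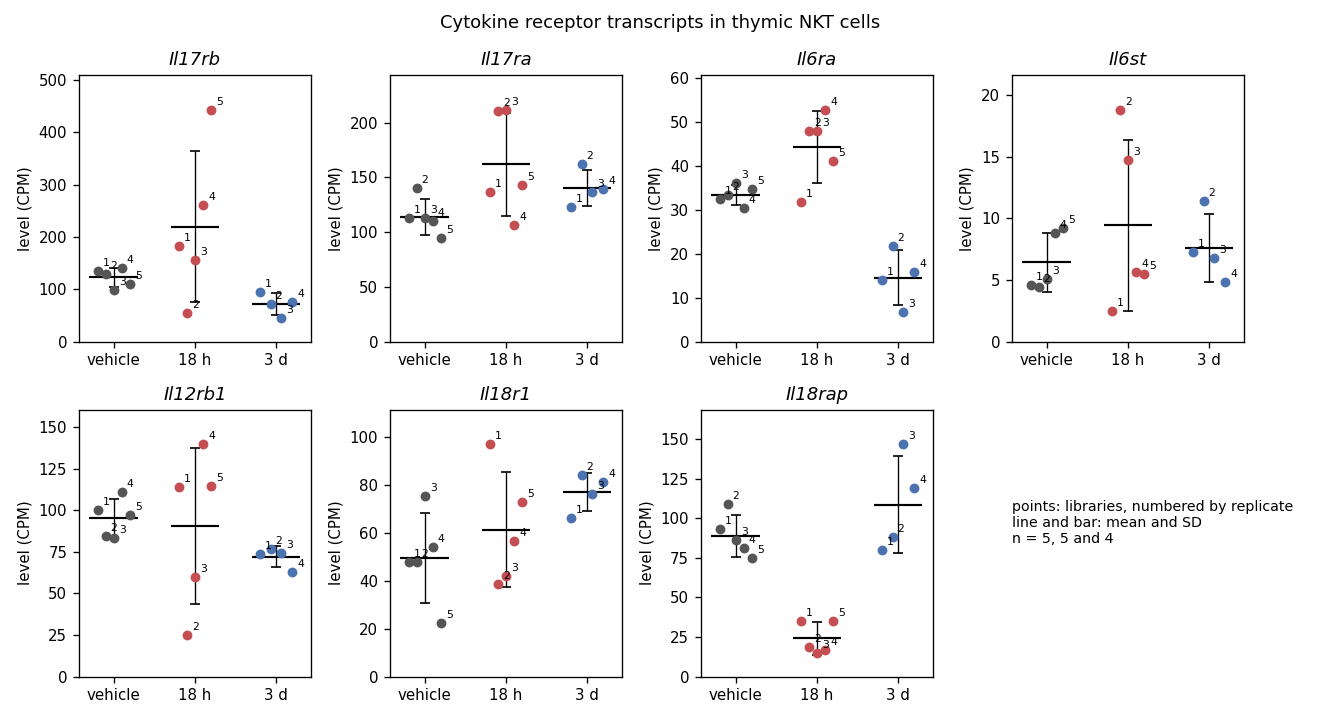
Level of each receptor gene in CPM (y axis, from 0) in vehicle, 18 h and 3 d libraries (x axis), with 1 numbered point per library and the mean and SD in black. The 18 h libraries of Il18rap (14.7 to 35.1 CPM) lie below every other library, those of Il6ra at 3 d (6.78 to 21.8 CPM) lie below all vehicle and 18 h libraries, and the 18 h libraries of Il17rb and Il12rb1 spread more widely than their vehicle and 3 d libraries.

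Transcripts of Il17rb, the chain that binds IL-25, differed between the 2 times after dexamethasone: they were about 3.04-fold lower at 3 d than at 18 h. In vehicle libraries the Il17rb level was 134, 130.02, 99.2, 140.8 and 109.5 CPM, at 18 h it was 183, 55.6, 156, 261 and 443 CPM, and at 3 d it was 95.7, 72.1, 44.9 and 76.5 CPM. All 3 d libraries lay below all vehicle libraries, 4 of the 5 libraries at 18 h lay above them, and the remaining one, replicate 2, lay below them. Group means were 123 ± 17.7 CPM in vehicle, 219.8 ± 145 CPM at 18 h and 72.3 ± 20.9 CPM at 3 d (SD, n = 5, 5 and 4). In sorted bulk cells, fewer cells of a type and less RNA per cell cannot be told apart.

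Between the times Il17rb fell by 1.60 on the log2 scale (SE 0.43, adjusted p = 0.026, edgeR). The call was lost with only the 2 groups in the fit (adjusted p = 0.080), with sample quality weights (-1.26, adjusted p = 0.073) and without the 3 d replicates 2, 3 or 4 (adjusted p = 0.062, 0.081 and 0.053). Without both CD8-rich 18 h libraries the difference was larger (-2.03 ± 0.26, adjusted p = 5.2e-05). Against vehicle, the 18 h value was 0.85 ± 0.38 (SE) with an adjusted p of 0.10, and without both of those libraries it was 1.27 ± 0.24 (adjusted p = 6.4e-04), and without replicate 2 alone it was 1.09 ± 0.26 (adjusted p = 0.0039). Without the 18 h replicate 5, the library at 443 CPM, it was 0.43 ± 0.31 (adjusted p = 0.31), and with sample quality weights 0.52 ± 0.38 (adjusted p = 0.29). At 3 d it was -0.76 ± 0.43 against vehicle (adjusted p = 0.21), although the groups did not overlap. That value was called with vehicle and 3 d libraries alone in the fit (-0.74 ± 0.19, adjusted p = 0.0054), where the wide 18 h spread does not enter the error, and without the 18 h replicate 2 (adjusted p = 0.048) or both CD8-rich libraries (adjusted p = 0.024). The 3′ end of Il17rb lies within the span of Actr8, an actin-related protein gene on the opposite strand, and the labels do not state how strand was handled in counting. Actr8 stood at 24.4 to 51.2 CPM over the 14 libraries and was called in none of the comparisons (its log2 fold change between the times was 0.25 ± 0.20, adjusted p = 0.48).

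Group 2 innate lymphoid cells (ILC2) are another known bearer of IL-17RB. Of 8 ILC2 markers, 4 were listed and summed to 1.54 to 12.2 CPM in vehicle, 16.0 to 128 CPM at 18 h and 1.69 to 16.1 CPM at 3 d. Il5 and Klrg1 were not listed, and Il1rl1, the IL-33 receptor chain, averaged 1.03, 0.456 and 0.237 CPM. The sum is mostly Calca, which encodes a neuropeptide precursor. It was the only one of the list to be tested and was called higher at 18 h (4.02 ± 0.66, adjusted p = 3.9e-04, edgeR) and lower between the times (-3.49 ± 0.70, adjusted p = 0.0047). Of 6 regulatory T cell markers, 5 were listed (Foxp3 was not) and summed to 325 to 389 CPM in vehicle, 361 to 751 CPM at 18 h and 466 to 566 CPM at 3 d, and 3 of 4 tested were called higher at 18 h. Most of this sum was Tnfrsf18, at 293 to 361, 251 to 573 and 420 to 517 CPM in the same order. The part of either list in the Il17rb values was not tested.

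Il17ra, the chain shared by receptors of the IL-17 family, was more even across groups. In vehicle libraries it stood at 113, 140.0, 113, 109.8 and 94.8 CPM, at 18 h at 137, 211, 212, 107 and 143 CPM, and at 3 d at 123, 162, 136 and 139 CPM. The 2 highest values are those of the CD8-rich 18 h libraries, and the groups overlapped in all comparisons. At 18 h Il17ra rose by 0.50 ± 0.18 on the log2 scale (adjusted p = 0.031, edgeR). Without both CD8-rich libraries the value was 0.18 ± 0.17 (adjusted p = 0.45), and with the trend of each library on GC content and transcript length removed it was also 0.18 ± 0.17 (adjusted p = 0.42). The call was further lost without vehicle replicate 1, 4 or 5, or the 18 h replicate 2 or 3, each left out singly (adjusted p = 0.060 to 0.11). In the authors' deposited table, where the sign is that of vehicle over 18 h, Il17ra had a log2 fold change of -0.50 and an adjusted p of 0.035, and it is marked as not passing the authors' own criteria. At 3 d the value was 0.30 ± 0.19 against vehicle (adjusted p = 0.25), with an interval of 1.96 SE from -0.07 to 0.66.

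Il6ra, the chain that binds IL-6, was about 2.29-fold lower at 3 d than in vehicle and 3.06-fold lower than at 18 h. In vehicle libraries the Il6ra level was 32.5, 33.3, 36.1, 30.4 and 34.7 CPM, which is the narrowest spread of the 7 genes in vehicle (6.54% of the mean). At 18 h it was 31.8, 47.9, 47.8, 52.8 and 41.2 CPM, and at 3 d 13.95, 21.8, 6.78 and 15.8 CPM, from 8 to 23 counts per library. All 3 d libraries lay below all vehicle and all 18 h libraries. A total of 4 of the 5 libraries at 18 h lay above all vehicle libraries, while replicate 1 lay within their range. Il6ra fell by 1.20 ± 0.25 on the log2 scale at 3 d against vehicle (adjusted p = 0.0016, edgeR) and by 1.61 ± 0.25 between the times (adjusted p = 1.7e-04). Both calls held in all 24 alternatives, in which the first ranged from -1.42 to -0.97 and the second from -1.84 to -1.39. At 18 h against vehicle the value was 0.41 ± 0.21 (adjusted p = 0.13), and it was called with sample quality weights (0.45 ± 0.18, adjusted p = 0.042). With the GC and length trend removed it was 0.07 ± 0.22 (adjusted p = 0.83).

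Macrophages and conventional T cells also express Il6ra, and their markers went in different directions. The 10 listed of 12 macrophage and dendritic cell markers summed to 599 to 1186 CPM in vehicle, 702 to 1426 CPM at 18 h and 959 to 2737 CPM at 3 d. Flt3 and Xcr1 of that list were not listed, Adgre1 was at 0 in 1 vehicle and 1 of the 3 d libraries, and Csf1r, the receptor for a macrophage growth factor, was present in all libraries (8.96 to 51.2 CPM). The sum of conventional T cell markers was lowest at 3 d, as given above. Klf2, which is on that list, went the other way, at 41.1 to 160 CPM in vehicle and 295 to 331 CPM at 3 d. It made up a large part of the 3 d sum. Of these 8 markers, 4 were called higher at 18 h, and at 3 d against vehicle 1 was called higher and 2 lower. Without both CD8-rich libraries the Il6ra difference between the times was -1.54 ± 0.28 (adjusted p = 0.0012, edgeR). That setting leaves the 3 d libraries, where the sum of conventional T cell markers was lowest, as they were. The part of macrophages or conventional T cells in the Il6ra result was not tested.

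Il6st, which encodes the signalling chain gp130, was counted rarely and was called in none of the comparisons. It had 4 to 16 counts per library in vehicle, 3 to 22 at 18 h and 7 to 12 at 3 d, which is 4.45 to 9.25, 2.51 to 18.8 and 4.82 to 11.4 CPM. Its 2 highest libraries were the CD8-rich ones (18.8 and 14.7 CPM), and the other 18 h libraries reached at most 5.66 CPM. The log2 fold change was 0.51 ± 0.43 at 18 h (adjusted p = 0.38, edgeR) and 0.20 ± 0.48 at 3 d (adjusted p = 0.78), and its sign at 18 h turned without those libraries (-0.45 ± 0.44, adjusted p = 0.48). The interval of 1.96 SE at 3 d was -0.74 to 1.14.

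Il12rb1, the chain shared by the IL-12 and IL-23 receptors, was called in none of the comparisons, and its 18 h libraries split. In vehicle it stood at 99.97, 84.5, 83.4, 111 and 97.1 CPM, at 18 h at 114, 24.8, 59.6, 139.6 and 115 CPM, and at 3 d at 73.7, 76.8, 74.5 and 62.7 CPM. At 18 h, replicates 1, 4 and 5 lay above all vehicle libraries and replicates 2 and 3, the CD8-rich ones, below them all. The 3 d libraries lay below all vehicle libraries. Against vehicle, the log2 fold change was -0.06 ± 0.29 at 18 h (adjusted p = 0.89, edgeR) and -0.41 ± 0.32 at 3 d (adjusted p = 0.36). Without both CD8-rich libraries it was 0.37 ± 0.16 at 18 h (adjusted p = 0.096), -0.41 ± 0.16 at 3 d (adjusted p = 0.055) and -0.78 ± 0.17 between the times (adjusted p = 0.0057), and only the last was called. With all libraries the difference between the times was -0.35 ± 0.32 (adjusted p = 0.55).

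**Figure D2:**
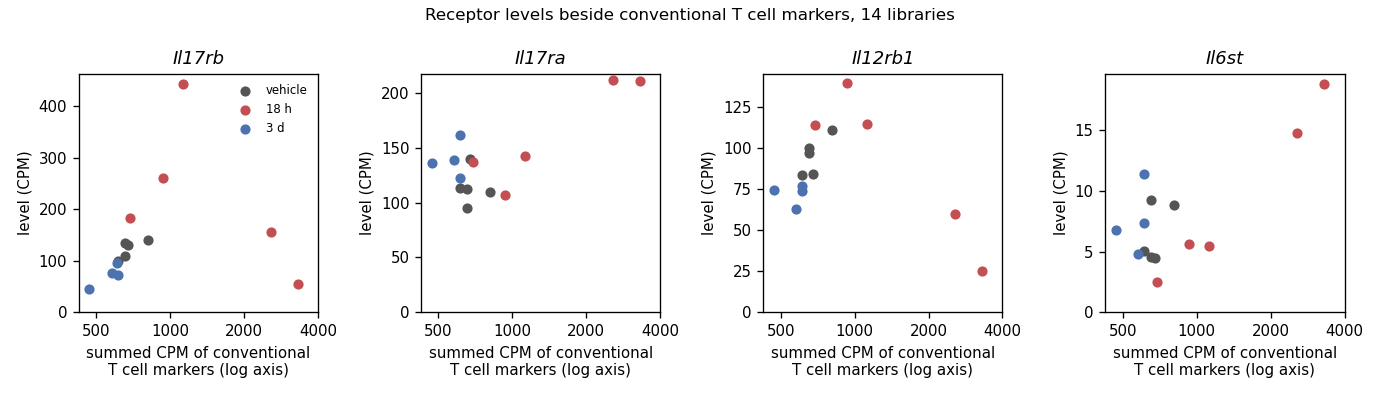
Level of 4 receptor genes in CPM (y axis, from 0) against the summed CPM of 8 conventional T cell markers (x axis, log scale), with 1 point for each of the 14 libraries coloured by group. The 2 libraries at the far right (2567 and 3309 CPM on the x axis) are the 18 h replicates 3 and 2. They are the highest of all libraries for Il17ra and Il6st and the lowest of all for Il12rb1.

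Il18rap, the accessory chain that IL-18 signalling needs, had the largest fold changes of the 7 genes at 18 h and between the times. The Il18rap level was 92.9, 109, 85.9, 81.1 and 74.8 CPM in vehicle, 35.1, 18.8, 14.7, 16.5 and 35.0 CPM at 18 h, and 79.7, 88.2, 147 and 119 CPM at 3 d. All 18 h libraries lay below all others, and the 3 d and vehicle libraries overlapped. The gene fell by 1.89 ± 0.24 on the log2 scale at 18 h (3.71-fold, adjusted p = 5.8e-06, edgeR) and was 2.18 ± 0.25 higher at 3 d than at 18 h (4.54-fold, adjusted p = 6.2e-06). Against vehicle, the 3 d value was 0.29 ± 0.23 (adjusted p = 0.35), with an interval of 1.96 SE from -0.15 to 0.74. The fall and the later difference were called in all 24 alternatives, with ranges of -2.13 to -1.65 and 1.94 to 2.37. Natural killer cells also express Il18rap. Of 8 markers of NK cells and group 1 innate lymphoid cells, 4 were listed (Ncr1 and Eomes, defining NK cell genes, were not) and summed to 471 to 643 CPM in vehicle, 77.3 to 299 CPM at 18 h and 439 to 747 CPM at 3 d. Of these 4, 2 were called lower at 18 h and 2 higher at 3 d than at 18 h, among them Klrb1c, which is also on the NKT1 list. The part of such cells in the Il18rap result was not tested.

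Il18r1, the chain that binds IL-18, did not follow its neighbour at 18 h. It stood at 47.7, 47.8, 75.3, 54.1 and 22.4 CPM in vehicle, at 97.0, 38.5, 41.9, 56.6 and 72.8 CPM at 18 h, and at 66.4, 84.4, 76.2 and 81.3 CPM at 3 d. The groups overlapped in all comparisons, and 3 of the 4 libraries at 3 d lay above all vehicle libraries. The log2 fold change was 0.29 ± 0.26 at 18 h (adjusted p = 0.41, edgeR), 0.62 ± 0.28 at 3 d (adjusted p = 0.10) and 0.33 ± 0.27 between the times (adjusted p = 0.50). The 3 d value was called without vehicle replicate 3 (0.83 ± 0.27, adjusted p = 0.025), with sample quality weights (0.75 ± 0.25, adjusted p = 0.022) and with vehicle and 3 d libraries alone in the fit (0.63 ± 0.23, adjusted p = 0.043). The 18 h value was 0.58 ± 0.26 without both CD8-rich libraries (adjusted p = 0.10) and 0.50 without vehicle replicate 3. It was 0.08 without the 18 h replicate 1, 0.11 without vehicle replicate 5 and 0.09 with the GC and length trend removed, and it was called in none of these. Between the times it was 0.04 ± 0.27 without both CD8-rich libraries (adjusted p = 0.96).

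**Figure D3:**
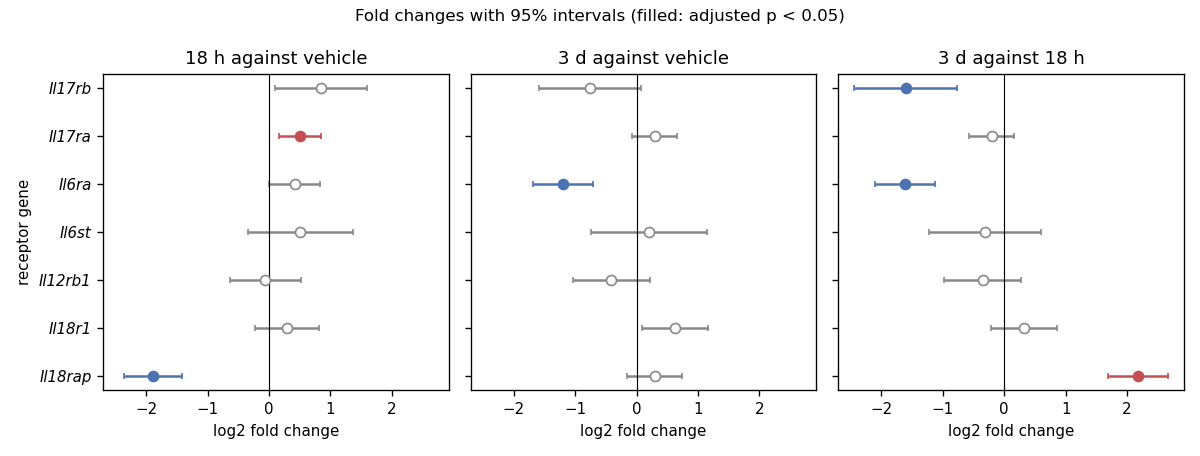
Log2 fold change (x axis) of the 7 receptor genes (y axis) in the 3 comparisons, with bars of 1.96 SE and filled points where the adjusted p was below 0.05. Il18rap stands at -1.89 at 18 h and 2.18 between the times, Il6ra at -1.20 at 3 d and -1.61 between the times, and the bars of Il17rb are wide.

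Ratios of the chains of 1 receptor within a library show the same data without library scaling. Reads came from transcript ends, so a ratio is compared between libraries and not with 1. Il18r1 over Il18rap was 0.299 to 0.876 in vehicle, 2.05 to 3.43 at 18 h and 0.520 to 0.957 at 3 d, so that all 18 h libraries stood above all others. Il17rb over Il17ra was 0.874 to 1.28 in vehicle, 0.264 to 3.10 at 18 h and 0.329 to 0.778 at 3 d. In that receptor the 3 d libraries lay below all vehicle libraries, and the 18 h libraries spanned both sides. Ratios of Il6ra to Il6st rest on the few Il6st counts, and were 3.44 to 7.5 in vehicle, 2.55 to 12.7 at 18 h and 1 to 3.29 at 3 d. These ratios are a description and were not tested.

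**Figure D4:**
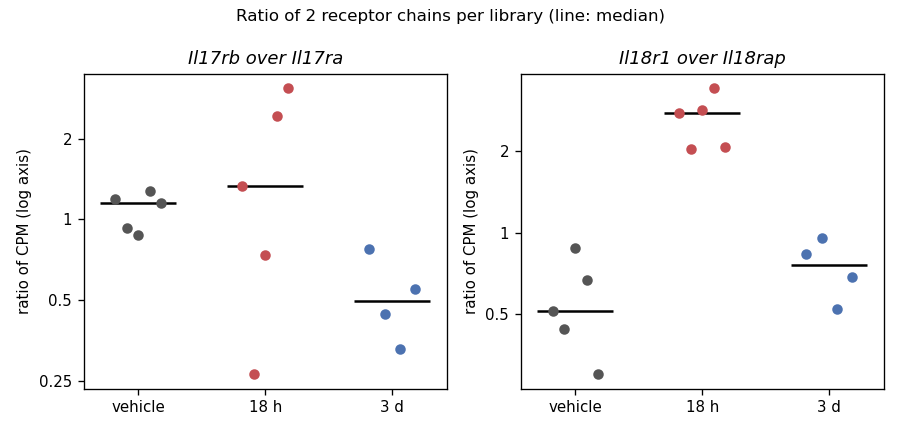
Ratio of CPM of Il17rb to Il17ra and of Il18r1 to Il18rap (y axis, log scale) in each vehicle, 18 h and 3 d library (x axis), with the group median as a line. The Il18r1 to Il18rap medians are 0.514, 2.76 and 0.758, and the 18 h libraries do not overlap the others.

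The receptor genes lie among genes that mark the NKT subsets, and those marker lists moved in these libraries too. All 14 NKT1 markers were listed and none was at 0 in any library. They summed to 6100 to 6416 CPM in vehicle, 1158 to 3119 CPM at 18 h and 9163 to 12914 CPM at 3 d, the order of the Il18rap group means. The Il18rap levels at 3 d and in vehicle overlapped, however, and their difference was not called. Ccl5 alone made up a large part of the marker sum at 3 d (3750 to 4581 CPM, beside 1077 to 1483 CPM in vehicle). Of the 14, 11 were called lower at 18 h, 2 higher at 3 d against vehicle and 12 higher at 3 d than at 18 h. Tbx21, the type 1 regulator T-bet, was 1.89 ± 0.39 lower on the log2 scale at 18 h and 2.23 higher between the times (adjusted p = 0.0022 and 0.0024). All 10 NKT2 markers were listed and summed to 1780 to 2449 CPM in vehicle, 1085 to 3197 CPM at 18 h and 716 to 1071 CPM at 3 d, with 1 of them at 0 in the 3 d replicate 4. Most of the vehicle sum was a single gene, Izumo1r, at 1049 to 1577 CPM there. Izumo1r stood at 385 to 2297 CPM at 18 h and 275 to 596 CPM at 3 d. The group with the lowest NKT2 sum also has the lowest mean for Il17rb, Il6ra and Il12rb1, and Il12rb1 was called in none of the comparisons. Of the 10 markers, 6 were called lower between the times and 4 were not called. Among the 6 was Zbtb16 (-1.49, adjusted p = 0.0071, edgeR), the NKT lineage factor, which is not particular to this list. At 3 d against vehicle, 5 were called lower and 5 were not called. Of 12 NKT17 markers, 10 were listed (Il23r and Il17f were not), and their sum was 125 to 287 CPM in vehicle, 57.4 to 146 CPM at 18 h and 170.2 to 215 CPM at 3 d. Of the 4 tested, 4 were called lower at 18 h, 2 lower at 3 d against vehicle and 2 higher at 3 d than at 18 h. Most of the sum at 3 d came from Tmem176a and Tmem176b (group means 67.4 and 106 CPM), which were not called against vehicle at 3 d, while Il17re and Blk were lower. Whether a change in the mix of subsets plays a part in the receptor results was not tested.

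Across the 14 libraries, the genes whose log2 CPM followed each receptor gene most closely were named by Pearson's r among 5115 or 5116 genes with a mean of at least 20 CPM. The values describe libraries that share groups and depth. For Il18rap they were Nrarp (r = 0.98), Klrb1c (r = 0.96), which encodes NK1.1, and Ly6c2 (r = 0.96), and the last 2 are on the NKT1 list. Nrarp, an inhibitor of Notch signalling, fell by 1.88 on the log2 scale at 18 h (adjusted p = 1.1e-05, edgeR) and was 2.08 higher between the times (adjusted p = 2.1e-05). For Il6ra they were Igfbp4 (r = 0.94), Pecam1 (r = 0.93) and Tesc (r = 0.92), of which Igfbp4 is on the conventional T cell list. Igfbp4, an insulin-like growth factor binding protein, was 343 ± 66.2 CPM in vehicle, 506 ± 197 CPM at 18 h and 114 ± 41.4 CPM at 3 d. For Il17rb the closest was Dhrs3, a retinal reductase (r = 0.90), followed by Max and Glmp (both r = 0.84). Il12rb1 lay closest to Laptm5 (r = 0.94), Plekhg3 and Osbpl5 (both r = 0.91), and Il17ra to Erich1 (r = 0.87), Sbk1 and Rab3gap1 (both r = 0.85). Il18r1 lay closest to Tbc1d2b, Surf1 (both r = 0.87) and Clptm1l (r = 0.86), and Il6st, from its few counts, to Sit1 (r = 0.80), Immp1l (r = 0.78) and Emp3 (r = 0.76). Among the receptor genes themselves, r ran from -0.73 (Il17ra with Il12rb1) to 0.66 (Il17rb with Il12rb1), and Il18r1 with Il18rap gave 0.22.

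Genes that act beside or below these receptors changed more often upwards than downwards against vehicle. Of 51 such genes in 4 lists, 37 were tested, of which 16 were called higher and 3 lower at 18 h, and 13 higher and 2 lower at 3 d, beside 17.0% higher and 17.3% lower at 18 h and 12.1% higher and 13.8% lower at 3 d among all genes. Their median log2 fold change was 0.37 and 0.40, against 0.01 and 0.03 over all genes. Between the times 2 were higher and 2 lower.

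Of 12 tested genes of other IL-6 family receptors and signalling, 6 were called higher at each time and none lower. That list also holds receptor chains for other cytokines, so not all its genes lie below the IL-6 receptor. Socs3, the feedback inhibitor that binds gp130, rose from 26.5 ± 7.19 CPM in vehicle to 107 ± 16.2 CPM at 18 h (2.01 ± 0.18, adjusted p = 6.0e-08, edgeR) and stood at 62.1 ± 6.54 CPM at 3 d (1.22 ± 0.20, adjusted p = 1.4e-04). It was also lower at 3 d than at 18 h (-0.79 ± 0.19, adjusted p = 0.0066), and these 3 calls held in all 24 alternatives. Stat3, the factor that gp130 activates, rose at 18 h (0.88 ± 0.18, adjusted p = 6.6e-04), and its 3 d call (0.59 ± 0.19, adjusted p = 0.024) was lost without vehicle replicate 4 or 5 or the 3 d replicate 2 or 3. The kinase gene Jak2 rose by 0.49 ± 0.16 and 0.50 ± 0.17 (adjusted p = 0.022 and 0.032), and neither call held without vehicle replicate 5 or once the trend on GC content and length was removed. The first was also lost without the 18 h replicate 5, and the second without vehicle replicate 2 or 4 or the 3 d replicate 1 or 3.

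Around the IL-12 receptor, 6 of 11 tested genes were called higher at 18 h and 5 at 3 d, none lower, and 3 of these genes are also on the IL-6 list. Gadd45g and Gadd45b, stress-induced activators of p38 signalling, rose by 2.12 ± 0.28 and 1.41 ± 0.22 at 18 h (adjusted p = 1.5e-05 and 5.3e-05, edgeR) and by 1.42 ± 0.30 and 1.21 ± 0.23 at 3 d (adjusted p = 0.0018 and 6.8e-04). Socs1, a feedback inhibitor of JAK kinases, rose at 18 h from 208 ± 18.1 to 414 ± 87.2 CPM (0.99 ± 0.16, adjusted p = 8.1e-05) and was lower at 3 d than at 18 h (-0.76 ± 0.17, adjusted p = 0.0051). Stat4, the factor below IL-12, stood at 38.9 ± 7.03, 28.3 ± 12.2 and 55.0 ± 23.4 CPM, and its higher level at 3 d than at 18 h (0.99 ± 0.30, adjusted p = 0.036) was called in 14 of 24 alternatives and lost without the 18 h replicate 3, 4 or 5 or the 3 d replicate 1 or 3. Il27ra, a receptor chain of the same family, stood at 365 ± 45.4, 293 ± 114 and 253 ± 32.8 CPM and was not called.

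Of 13 tested genes of the IL-18 and IL-1 receptor pathway, 6 were called higher and 1 lower at 18 h, and 3 higher at 3 d. Il18bp, the secreted protein that binds IL-18, was 13.5 ± 2.05 CPM in vehicle, 22.5 ± 7.13 CPM at 18 h and 43.4 ± 19.5 CPM at 3 d. It rose at 3 d (1.70 ± 0.30, adjusted p = 3.3e-04, edgeR) in all 24 alternatives, and its difference between the times (0.96 ± 0.29, adjusted p = 0.030) was called in 17 of them, but not without the 18 h replicate 2 or 4 or the 3 d replicate 1 or 2. In the 3 d libraries Il18bp stood at 63.1, 56.9, 24.6 and 28.9 CPM. The macrophage and dendritic cell markers there summed to 2737, 1660, 959 and 1426 CPM. The part of such cells in the Il18bp result was not tested. Nfkb1, an NF-kB subunit gene, rose by 1.35 ± 0.23 at 18 h and 1.22 ± 0.24 at 3 d (adjusted p = 1.4e-04 and 9.7e-04), and Tollip, an inhibitor of the pathway, by 0.78 ± 0.21 and 0.91 ± 0.22 (adjusted p = 0.0066 and 0.0047). Irak2, a kinase of the receptor complex, was higher at 18 h (1.19 ± 0.36, adjusted p = 0.015) and Irak4 lower (-0.85 ± 0.29, adjusted p = 0.026), and both calls were lost without the 18 h replicate 1. The call of Irak4 was also lost without vehicle replicate 1 or 4 or without both CD8-rich libraries.

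Of 8 tested genes of the IL-17 receptor family and of IL-25 and IL-17 signalling, 2 were called higher and 2 lower at each time. Il17re, a receptor chain that pairs with Il17ra, fell from 11.1 ± 4.81 CPM to 2.90 ± 2.59 CPM at 18 h and 2.68 ± 2.16 CPM at 3 d (-1.82 ± 0.51 and -2.08 ± 0.59, adjusted p = 0.0095 and 0.013, edgeR), and it is also an NKT17 marker. Traf5, an adaptor, fell by 0.86 ± 0.27 at 18 h and 1.23 ± 0.30 at 3 d (adjusted p = 0.017 and 0.0051), the former not called without both CD8-rich libraries or without vehicle replicate 2. Traf3ip2, which encodes Act1, the adaptor of the IL-25 receptor, and Tab2, an adaptor of the kinase TAK1, rose at 3 d (0.62 ± 0.18 and 0.75 ± 0.17, adjusted p = 0.014 and 0.0036). The call of Traf3ip2 was lost without the 3 d replicate 2 (adjusted p = 0.052). Traf4 and Traf6, adaptor genes, rose at 18 h (1.496 ± 0.50 and 0.74 ± 0.24, adjusted p = 0.025 and 0.020). The Traf4 value rests on few counts, 2 to 9 per library in vehicle and 8 to 23 at 18 h. Traf4 was not called without vehicle replicate 1, the 18 h replicate 1 or 2, or both CD8-rich libraries, and Traf6 not without the 18 h replicate 2, without both CD8-rich libraries or with the GC and length trend removed.

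**Figure D5:**
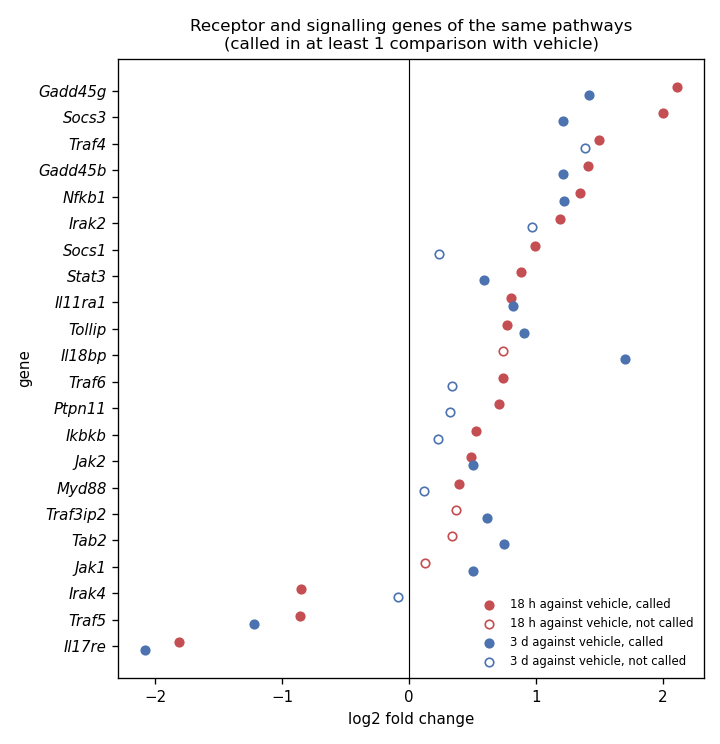
Log2 fold change (x axis) at 18 h and 3 d against vehicle for genes of the 4 receptor and signalling lists (y axis) called in at least 1 of the 2 comparisons, with filled points where called. Gadd45g, Socs3, Gadd45b and Nfkb1 are above 1 and called at both times, and Il17re and Traf5 are below 0 and called at both times.

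Most genes of the cytokines themselves were not listed or were sparse in the sorted cells. Of 18 ligand genes of these receptor families, 7 were listed, and neither Il25, Il6, Il12a nor Il12b was among them. Il18 had 0 to 8 counts per library. Only 2 were tested, of which Osm, a cytokine that signals through gp130, rose at 18 h from 12.4 ± 2.41 to 25.2 ± 6.51 CPM (0.99 ± 0.23, adjusted p = 0.0027, edgeR). The other, Clcf1, was not sparse (87.6 to 147 CPM over the 14 libraries) and was not called.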

How the data were processed

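Libraries of sorted thymic NKT cells were made by bulk MARS-seq, per the labels. The submitters' processing notes name mm10 as build and, in no order, DESeq2, HTSeq, STAR 2.5.2b, cutadapt and bcl2fastq. The authors deposited raw whole-number counts per gene, a normalized signal (each count divided by 1 size factor per library), regularised log2 values and log2 fold changes, and p-values of their comparisons. Only the raw counts were tested, and authors' values are named as such. No listed gene stayed below 6 counts in all libraries. The 17 names turned into dates (0.102% to 0.147% of counts) were left out.

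Counts were analysed with edgeR 4.0.16 in R 4.3.3: filterByExpr by group, TMM, and 1 robust quasi-likelihood fit of all 3 groups, two-sided, with Benjamini-Hochberg adjustment. The fit was checked on simulated counts. DESeq2 1.42.0 and limma 3.58.1 (sample quality weights) served as alternatives. Replicates of a group differed beyond counting noise (chi-square over its degrees of freedom was 3.69 to 16.5 for pairs). The spread behind each p-value is that between these samples and may be technical. Molecular identifier and strand handling were not stated in those sources, and counting limits cover counting error only. The members, lists and tests were chosen with earlier results of these data known. Genes named are the receptor genes, up to 4 called genes per pathway list and comparison by smallest adjusted p (a selection is printed), the 3 most correlated genes per member (log2 CPM, prior count 2), and a few regulators. Irak4, Il27ra, Clcf1, Il18, Cd3e, Cd8b1, Rag1, Klf2, Csf1r, Adgre1, Il1rl1, Calca, Tnfrsf18, Ccl5, Izumo1r, Blk, Tmem176a, Tmem176b and Actr8 were chosen after their values were seen. Some genes that the rule names are counted in the lists but not reported here by name or drawn. Coordinates come from GENCODE (GRCm38).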

Additional observations from a re-analysis of the deposited data

Results flagged for a closer look

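The difference between the 2 times after dexamethasone passed the test for 3 receptor genes: Il17rb (log2 fold change of 3 d over 18 h -1.60, adjusted p = 0.026, edgeR), Il6ra (-1.61, adjusted p = 1.7e-04) and Il18rap (2.18, adjusted p = 6.2e-06). For Il6ra all 4 libraries at 3 d lay below all 5 at 18 h, and for Il18rap all 4 lay above, while for Il17rb the 18 h replicate 2 (55.6 CPM) lay within the 3 d range. In the 21 combinations of receptor gene and group, no single library stood far enough from the rest of its group to pass Dixon's 95% limit.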

How the results depend on the processing

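Of 501 receptor gene values recomputed under the alternatives, 469 kept their sign and their side of the threshold. The calls of Il18rap and Il6ra held throughout, and those of Il17ra at 18 h and of Il17rb between the times were lost in 7 and 6 of 24 alternatives. Values that changed sign, none of them called with all libraries, were Il12rb1 at 18 h (0.17, 0.06 and 0.37 without the 18 h replicate 2, replicate 3 or both; -0.28 to 0.17 over single libraries left out), Il6st at 18 h (-0.45 without both), Il6st at 3 d (-0.036 without the 3 d replicate 2, the lowest of -0.036 to 0.37 over single libraries, and -0.032 with the GC and length trend removed), Il6st between the times (0.070 without the 18 h replicate 2, the highest of -0.55 to 0.070 over single libraries, and 0.65 without both) and Il17ra between the times (0.12 without both), and the cause was not tested. The number of receptor genes called at 18 h (2) was 1 with the GC and length trend removed, which covered 96.5% of genes. At 3 d (1) it was 3 with only the 2 groups compared, 2 with sample quality weights and 2 without both CD8-rich libraries. Leaving out single libraries gave 1 to 2, 1 to 2 and 2 to 3 receptor genes, and 2167 to 3164, 1472 to 2596 and 640 to 1042 genes in all (2734, 2064 and 931 with all libraries). Sample quality weights called 3129 genes at 3 d.

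Replicate numbers did not pair the samples: of 13 same-numbered pairs of libraries, 1 by sample titles and 0 by library names deviated together with a correlation above 0.1, and 2 and 0 of 14 libraries correlated best with their own number. With the title number as a replicate block, 2489, 1721 and 755 genes and 2, 1 and 2 receptor genes were called, Il17rb between the times no longer being called (-1.31 ± 0.39, adjusted p = 0.057). With the library-name number as the block, 2449, 1790 and 713 genes and 2, 1 and 3 receptor genes were called. Of the receptor genes, Il6st rests on the fewest counts, 3 to 22 per library.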
